A study of Mus musculus with 12 samples.

Results

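Nlrp1b, a cytosolic sensor that can start an inflammasome, was examined together with 9 other genes of the canonical inflammasome in glomeruli of 2 BALB/c substrains. Inflammasomes are protein assemblies of innate immunity. A sensor such as NLRP1B, NLRP3 or NLRC4 recognises a danger signal and, directly or through the adaptor ASC (gene Pycard), brings caspase-1 (Casp1) to activation. Caspase-1 matures the cytokines interleukin-1β (Il1b) and interleukin-18 (Il18) and cleaves gasdermin D (Gsdmd), whose fragment forms pores in the cell membrane, and caspase-11 (gene Casp4) cleaves gasdermin D in the non-canonical route. These functions are regulated largely at the protein level, and the values below are transcript counts.

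The 10 genes were taken by symbol from the count tables, where all 10 of 10 were present among 26264 gene symbols. Nlrp1b was selected on its measured difference between the substrains in the untreated libraries, so the substrain comparison at baseline is given as a description without a test. The other 9 were listed by symbol as genes of the same pathway. They and the pathway lists described below were drawn up with earlier results of these data known, so counts of calls among them are no independent evidence. Of the 10, 9 had enough counts to be among the 17002 genes tested, and Nlrp1a did not.

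The mice were male BALB/cAjcl (Ajcl) and BALB/cByJcl (ByJcl), 8 weeks old when obtained from 1 vendor. Untreated animals of either substrain formed the baseline groups, with 3 libraries each. The Day 5 groups, also of 3 libraries each, received 1 intravenous dose of adriamycin (ADR, doxorubicin) of 10 mg/kg, a drug that injures podocytes in BALB/c mice. No saline-treated animals were in the tables, so Day 5 was compared with untreated mice, and the drug, the time, the injection and the separate baseline and Day 5 tables cannot be told apart. Glomeruli were isolated with magnetic beads, which does not remove leukocytes or adhering tubule fragments.

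Total counts ranged from 42198416 to 54687045 per library. The summed level of 8 podocyte markers was 7132 to 21032 CPM (counts scaled to the library size by edgeR's TMM method) in each library, and the summed level of 6 endothelial markers was 9205 to 13146 CPM. Ajcl Day 5 replicate 1 is the library that the study left out of its main Day 5 analysis for low glomerular purity. It had the highest summed level of distal tubule and collecting duct markers, 1769 CPM, and it was left out of the fit, so that Ajcl at Day 5 had 2 libraries. Its values are given beside the others.

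Nlrp1b lies on the minus strand of chromosome 11, at chr11:71043928-71121559 of GRCm39, next to its near copy Nlrp1a at chr11:70982021-71035639 and to the pseudogene Nlrp1c-ps at chr11:71133256-71172045. Because the 3 could share reads, their transcripts were compared, and sequences of Nlrp1b and Nlrp1a are shown first. The first pair shown is upstream of the genes and does not bear on shared reads. Stretches upstream of Nlrp1b and Nlrp1a were identical at 123 of 128 aligned bases, and no gap was needed. That of Nlrp1a adjoins the annotated gene, and that of Nlrp1b lies farther upstream of the span given above. They are written 5′ to 3′ on the minus strand from RefSeq promoter windows placed on GRCm39, with the 5 differing bases in capitals.
Nlrp1b, chr11:71121682-71121809: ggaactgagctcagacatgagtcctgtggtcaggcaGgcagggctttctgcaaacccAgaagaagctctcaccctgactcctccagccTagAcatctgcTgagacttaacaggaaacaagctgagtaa
Nlrp1a, chr11:71035640-71035767: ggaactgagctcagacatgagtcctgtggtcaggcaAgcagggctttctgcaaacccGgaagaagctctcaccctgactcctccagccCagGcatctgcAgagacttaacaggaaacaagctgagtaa

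The coding sequences differ more. Over 3528 aligned bases of the longest annotated coding sequences, 86.3% were identical. The longest identical run was 102 bases, in coding exon 8 of 13 of Nlrp1b and coding exon 10 of 14 of Nlrp1a. It is shown in capitals, 5′ to 3′ on the minus strand, with the bases of the same exon before and after it in lower case.
Nlrp1b, chr11:71054799-71054930: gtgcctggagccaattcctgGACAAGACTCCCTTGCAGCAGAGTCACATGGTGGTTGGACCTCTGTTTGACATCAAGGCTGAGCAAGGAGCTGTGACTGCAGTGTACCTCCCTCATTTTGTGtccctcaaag
Nlrp1a, chr11:70996822-70996953: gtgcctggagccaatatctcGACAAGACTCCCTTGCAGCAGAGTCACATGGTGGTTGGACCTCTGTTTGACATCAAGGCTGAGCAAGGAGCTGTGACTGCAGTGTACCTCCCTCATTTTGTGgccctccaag

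The libraries were sequenced as pairs of 150-base reads. None of the 6296 distinct stretches of 150 bases in the annotated Nlrp1b transcripts occurred in a transcript of Nlrp1a or Nlrp1c-ps, and 28 of 6296 stretches of 75 bases, or 0.445%, occurred in Nlrp1a. These comparisons use the reference genome, which is that of C57BL/6J. The sequence of this region in the BALB/c substrains was not analysed here.

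Nlrp1b transcripts were lower in ByJcl than in Ajcl at both time points. At baseline the Ajcl libraries held 159, 151 and 146 Nlrp1b counts and the ByJcl libraries 16, 4 and 26. At Day 5 the Ajcl libraries held 84 (replicate 1, outside the fit), 129 and 193 counts and the ByJcl libraries 52, 12 and 12. The substrains did not overlap at either time point, with or without Ajcl Day 5 replicate 1. No ByJcl library was at 0. Of all tested genes, 5.29% were lower in every ByJcl library than in every Ajcl library at baseline, 16.5% at Day 5 over the libraries of the fit and 9.43% at Day 5 with Ajcl replicate 1.

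In CPM the mean at baseline was 3.29 ± 0.327 (SD, n = 3) in Ajcl and 0.304 ± 0.201 (SD, n = 3) in ByJcl, a log2 fold change of −3.42 (SE 0.63), or 10.7-fold lower in ByJcl. That difference chose the gene and is not tested. At Day 5, in other animals, the mean was 3.37 ± 0.774 (SD, n = 2) in Ajcl and 0.562 ± 0.510 (SD, n = 3) in ByJcl. The Day 5 log2 fold change of ByJcl to Ajcl was −2.58 (SE 0.64), 5.97-fold lower.

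The Day 5 difference did not pass the threshold in edgeR's quasi-likelihood test, with an unadjusted p of 0.00186 and a Benjamini-Hochberg adjusted p of 0.139. It passed with DESeq2, the tool of the study's methods, at −2.57 and an adjusted p of 0.00484. Among the 17002 genes, 0.165% were called by edgeR in this comparison and 3.15% by DESeq2. Over all alternatives the log2 fold change stayed between −3.65 and −2.22 and the adjusted p ran from 0.00484 to 0.983. ByJcl Day 5 replicate 1, with 1.15 CPM, stood above the other ByJcl Day 5 libraries at 0.276 and 0.259 CPM, and without it the log2 fold change was −3.65 with an adjusted p of 0.0434.

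No effect of ADR on Nlrp1b passed the test in either substrain. The Day 5 and baseline libraries overlapped in both, and the log2 fold change was 0.032 (SE 0.61, adjusted p = 0.992 by edgeR) in Ajcl and 0.87 (SE 0.63, adjusted p = 0.421 by edgeR) in ByJcl. Without ByJcl Day 5 replicate 1, the value in ByJcl was −0.19. The difference between these effects was 0.84 (SE 0.88) with an adjusted p of 0.819. All of these comparisons use the baseline libraries that chose the gene.

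Nlrp1a followed the same order at far lower counts. Ajcl libraries held 11, 9 and 10 counts at baseline and 9, 5 and 8 at Day 5. ByJcl libraries held 0, 2 and 0 counts at baseline and 0, 4 and 2 at Day 5. The substrains did not overlap at either time point, a pattern whose shares of all tested genes are given above for Nlrp1b. Nlrp1a is given by its counts alone because it did not pass the filter on low counts. Nlrp1c-ps had 1, 3 and 0 counts in Ajcl at baseline, 1, 5 and 3 in Ajcl at Day 5 and 0 in each of the 6 ByJcl libraries, where a count of 0 allows up to about 0.0648 CPM (3 counts, counting error only).

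**Figure D1:**
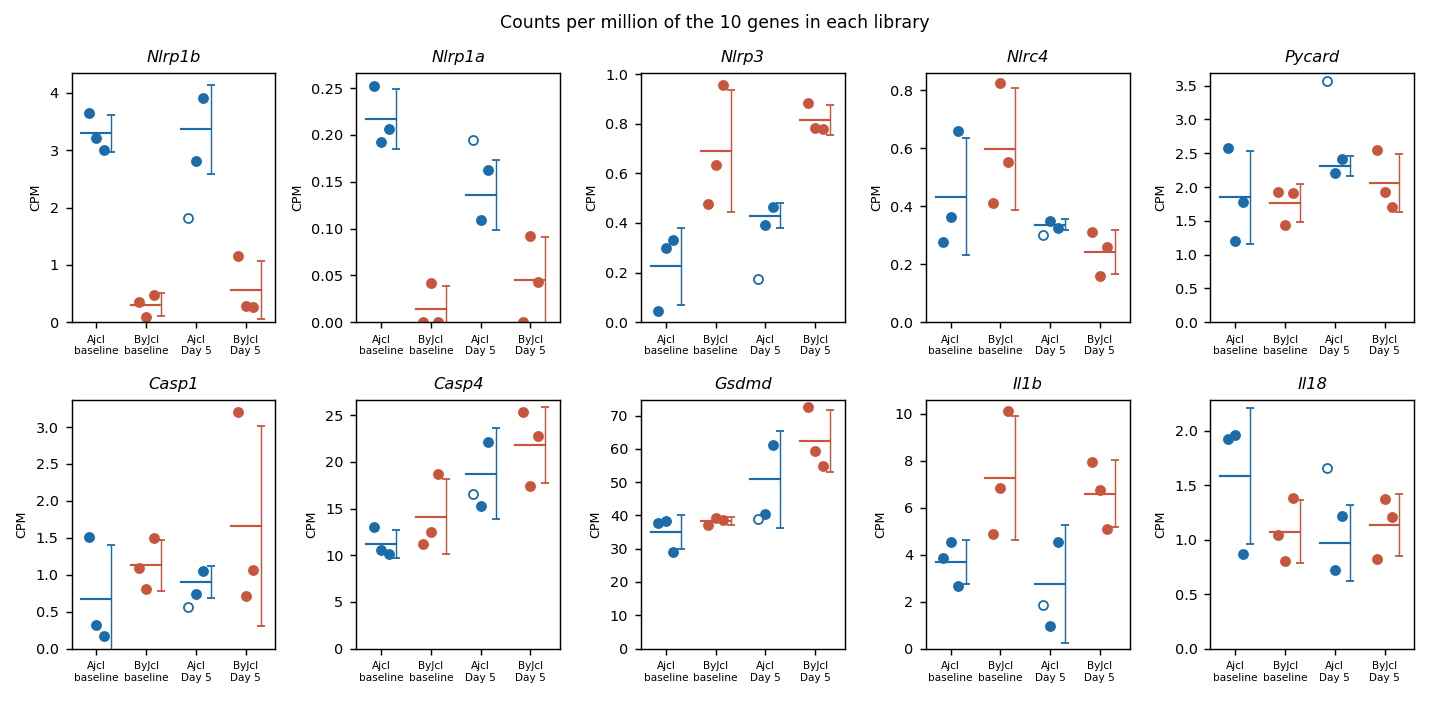
Each panel shows 1 gene as CPM in every library of the 4 groups (filled points), with the group mean (line) and SD (error bar, drawn down to 0 at most). The open point is Ajcl Day 5 replicate 1, which is outside the means. Nlrp1b and Nlrp1a sit lower in each ByJcl group than in the Ajcl group of the same time point, Il1b and Nlrp3 sit higher, and Gsdmd and Casp4 have their highest means at Day 5.

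No tested gene around Nlrp1b had a difference near its size. Within 500 kb of the gene body on either side, the count tables held 15 other tested genes and 6 names below the filter, Nlrp1a and Nlrp1c-ps among them. At Day 5 none of the 15 was called by edgeR. Their log2 fold changes of ByJcl to Ajcl ran from −0.69 to 0.39 at baseline and from −0.45 to 0.64 at Day 5. The highest at Day 5 was Pfn1, the actin-binding protein profilin-1, at 0.64 (SE 0.16, edgeR adjusted p = 0.143). Pfn1 passed with DESeq2, at an adjusted p of 0.0102. The lowest was Zfp3, a zinc finger gene, at −0.45 (SE 0.21, edgeR adjusted p = 0.382). All 15 lie on the side of Nlrp1a, the nearest with its start 197 kb from that of Nlrp1b, so no tested gene marks the other side.

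**Figure D2:**
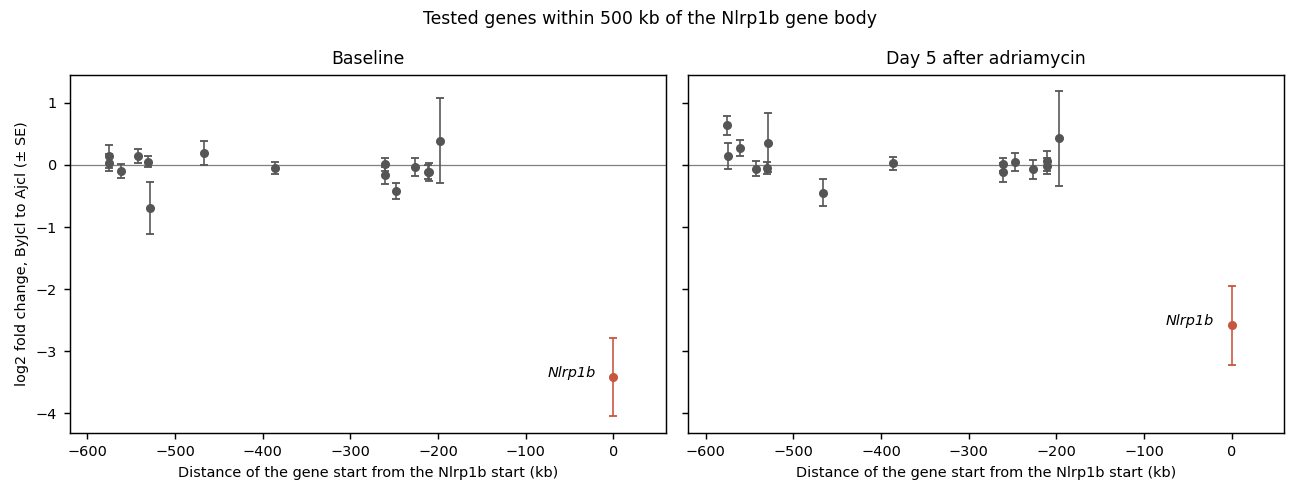
The log2 fold change of ByJcl to Ajcl (± SE) is plotted against the distance of each gene's start from the Nlrp1b start in kb, for the tested genes that lie within 500 kb of the Nlrp1b gene body, at baseline (left) and Day 5 (right). Nlrp1b lies at −3.42 and −2.58, and the 15 others lie between −0.69 and 0.64.

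Across the 11 libraries of the fit, the genes whose log2 CPM followed Nlrp1b most closely were Rspo3 (Pearson r = 0.954), H2-Q6 (0.946), Cd53 (0.934), AI504432 (0.926) and Lrch2 (0.922). The points share their libraries, and the order was ranked over all tested genes. The baseline libraries that chose Nlrp1b are among the 11, so r includes that selected difference between the substrains. The values are therefore descriptions. With Spearman's rank correlation, 2 of these 5 stayed among the 5 closest. Rspo3 encodes a secreted enhancer of Wnt signalling, H2-Q6 a class I major histocompatibility molecule and Cd53 a tetraspanin of leukocytes.

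The 5 lie on other chromosomes than Nlrp1b. Rspo3 is at chr10:29327285-29411876, H2-Q6 at chr17:35643777-35655332 and Lrch2 at chrX:146253371-146337077. Cd53 at chr3:106666177-106697530 and AI504432 at chr3:106946272-106961663 are close to each other. H2-Q6 had 9.46, 12.0 and 8.60 CPM in Ajcl and at most 0.0737 CPM in ByJcl at baseline. Cd53 was at 12.3 CPM in ByJcl Day 5 replicate 1 and at 5.29 and 5.88 CPM in the other ByJcl Day 5 libraries, and it was chosen for following Nlrp1b across these libraries.

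In length-scaled levels (mean CPM per kb of exon), Gsdmd was the most abundant of the 10 genes in untreated Ajcl glomeruli, at 11.7 ± 1.71 (SD, n = 3), followed by Casp4 at 2.14 ± 0.294 and Il1b at 1.42 ± 0.367. Il18 at 0.527 ± 0.207, Nlrp1b at 0.522 ± 0.0519 and Pycard at 0.436 ± 0.163 differed by less than their spread. Casp1 at 0.213 ± 0.236, Nlrc4 at 0.0895 ± 0.0416, Nlrp3 at 0.0554 ± 0.0384 and Nlrp1a at 0.0408 ± 0.00597 were lowest. In Ajcl, then, Nlrp1b had the highest level of the 4 sensors among the members. Outside them Naip2 was higher, at 1.00 ± 0.0468 CPM per kb, and Nlrp6 stood at 3.40 ± 2.98 with wide spread. In untreated ByJcl it stood at 0.0481 ± 0.0318 CPM per kb, and Nlrp3 at 0.170 ± 0.0604 and Nlrc4 at 0.123 ± 0.0435 were above it. At Day 5 in ByJcl, Nlrp3 was at 0.201 ± 0.0150, Nlrp1b at 0.0891 ± 0.0809 and Nlrc4 at 0.0503 ± 0.0157 CPM per kb, so the order of Nlrp1b and Nlrc4 was not the same, and these last values differed by less than their spread.

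Among the other sensors, Nlrp3, which responds to potassium efflux and crystals, was higher in each ByJcl library than in any Ajcl library of the same time point. Its CPM at Day 5 was 0.173 (replicate 1, outside the fit), 0.393 and 0.466 in Ajcl and 0.885, 0.782 and 0.778 in ByJcl. The untreated Ajcl libraries had 0.0459, 0.299 and 0.330 CPM, and the untreated ByJcl libraries 0.477, 0.635 and 0.958 CPM. Of all tested genes, 9.19% were likewise higher in every ByJcl library at baseline, 16.9% at Day 5 and 9.99% at Day 5 with Ajcl replicate 1. The Day 5 log2 fold change of 0.92 (SE 0.61) had an edgeR adjusted p of 0.526. The counts behind it were 18 to 40 per library of the fit at Day 5.

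Nlrc4, the sensor that works with NAIP proteins to detect bacterial flagellin and secretion needles, had 0.412, 0.826 and 0.553 CPM in ByJcl at baseline and 0.310, 0.161 and 0.259 CPM at Day 5. These groups did not overlap, as for 16.1% of all tested genes in this direction. The log2 fold change was −1.28 (SE 0.50) with an unadjusted p of 0.0258 and an edgeR adjusted p of 0.127. In Ajcl the same comparison gave −0.36 (SE 0.55, edgeR adjusted p = 0.889), with overlapping libraries. Nlrc4 overlaps Slc30a6 on the opposite strand. The libraries were strand-specific, but the strand setting of the counting is not given in the sources used here, and the same holds for Il1b with Il1bos and Gm14023 and for Il18 with Bco2 and Tex12. No annotated gene overlaps Nlrp1b or Nlrp1a.

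The adaptor gene Pycard was not called in any comparison. At baseline Ajcl libraries had 2.57, 1.19 and 1.77 CPM, and ByJcl libraries had 1.93, 1.44 and 1.92 CPM. At Day 5 Ajcl libraries had 3.56 (replicate 1, outside the fit), 2.21 and 2.41 CPM, and ByJcl libraries had 2.54, 1.93 and 1.71 CPM. The groups overlapped in every comparison, and the log2 fold changes tested lay between −0.16 and 0.32.

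The effector caspases differed in how steady they were. Casp1 had 1.52, 0.320 and 0.165 CPM in Ajcl and 1.08, 0.804 and 1.49 CPM in ByJcl at baseline, and 0.561 (replicate 1, outside the fit), 0.743 and 1.05 CPM in Ajcl and 3.21, 0.713 and 1.06 CPM in ByJcl at Day 5. The groups overlapped in every comparison. The Day 5 log2 fold change of ByJcl to Ajcl, 0.88 (SE 0.84, edgeR adjusted p = 0.658), was −0.031 without ByJcl Day 5 replicate 1, the library with 3.21 CPM.

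Casp4 had higher means at Day 5 in both substrains, without passing the edgeR test. In Ajcl it was 13.0, 10.6 and 10.1 CPM at baseline and 16.5 (replicate 1, outside the fit), 15.3 and 22.2 CPM at Day 5, with no overlap, as for 13.6% of all tested genes in this direction. The log2 fold change was 0.74 (SE 0.25, edgeR adjusted p = 0.314). In ByJcl, 11.2, 12.4 and 18.7 CPM at baseline overlapped 25.3, 17.4 and 22.8 CPM at Day 5, and the log2 fold change was 0.63 (SE 0.23, edgeR adjusted p = 0.102). DESeq2 called it in ByJcl with an adjusted p of 0.0429.

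Gsdmd, the pore-forming executor, was the 1 member that edgeR called in any tested comparison. In ByJcl it was 37.0, 39.2 and 38.7 CPM at baseline and 72.6, 59.4 and 54.8 CPM at Day 5, and all Day 5 libraries were above all baseline libraries, as for 17.3% of all tested genes. It rose by a log2 fold change of 0.70 (SE 0.17), 1.63-fold, with an edgeR adjusted p of 0.0235. In Ajcl, 37.8, 38.3 and 29.1 CPM at baseline stood against 39.0 (replicate 1, outside the fit), 40.5 and 61.1 CPM at Day 5. These groups did not overlap either, as for 13.6% of all tested genes in this direction over the libraries of the fit. The Ajcl replicates at Day 5 were far apart, and the log2 fold change of 0.54 (SE 0.18) had an edgeR adjusted p of 0.324.

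The Gsdmd effects in the substrains differed by 0.17 (SE 0.25, edgeR adjusted p = 0.883), so a larger rise in ByJcl was not shown. The call in ByJcl was close to the threshold. It was lost in 5 of 19 alternatives, each of which left out 1 of the ByJcl libraries other than Day 5 replicate 3, with adjusted p-values of 0.0522 to 0.0762. In ByJcl 10.6% of all tested genes were called after ADR, 5.75% as higher, so 1 of 9 tested members is near the background.

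Among the cytokines, Il1b was higher in each ByJcl library than in any Ajcl library of the same time point. It was 3.86, 4.54 and 2.66 CPM in Ajcl and 4.86, 6.84 and 10.1 CPM in ByJcl at baseline, and 1.86 (replicate 1, outside the fit), 0.961 and 4.52 CPM in Ajcl and 7.97, 6.73 and 5.10 CPM in ByJcl at Day 5. Such a pattern was shared by 9.19% of all tested genes at baseline, 16.9% at Day 5 and 9.99% at Day 5 with Ajcl replicate 1. The Day 5 log2 fold change was 1.26 (SE 0.54), 2.40-fold, with an unadjusted p of 0.0387 and an edgeR adjusted p of 0.332. It was 2.78 with an adjusted p of 0.0382 without Ajcl Day 5 replicate 3 and 0.55 with an adjusted p of 0.988 without Ajcl Day 5 replicate 2, each of which leaves 1 Ajcl library. ADR gave −0.42 (SE 0.53) in Ajcl and −0.14 (SE 0.46) in ByJcl, with overlapping libraries.

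Il18 was not called in any comparison. At baseline Ajcl libraries had 1.93, 1.96 and 0.866 CPM, and ByJcl libraries had 1.04, 0.804 and 1.38 CPM. At Day 5 Ajcl libraries had 1.66 (replicate 1, outside the fit), 0.721 and 1.22 CPM, and ByJcl libraries had 0.819, 1.38 and 1.21 CPM. The groups overlapped throughout, and its Day 5 log2 fold change of ByJcl to Ajcl was 0.23 (SE 0.45, edgeR adjusted p = 0.843).

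Markers of cell types were read in the same libraries. The summed level of 14 myeloid markers was 60.5 to 89.0 CPM in Ajcl and 98.6 to 166 CPM in ByJcl at baseline, and 82.7 to 139 CPM in Ajcl and 157 to 203 CPM in ByJcl at Day 5. All 14 had a positive log2 fold change in ByJcl at baseline and 13 of 14 at Day 5, none of them called by edgeR at Day 5 (7 at an unadjusted p below 0.05, and 1 called by DESeq2). Of the 9 tested members, 6 had positive and 3 negative log2 fold changes of ByJcl to Ajcl at baseline, and likewise at Day 5. The 6 lymphoid markers summed to 0.371 to 2.60 CPM in every library. All 6 had positive log2 fold changes of ByJcl to Ajcl at Day 5, with a median of 0.90, and 4 of 6 did at baseline. At Day 5 neither tool called any of the 6, and 0 had an unadjusted edgeR p below 0.05. No marker of any list was at 0 in all libraries of a group.

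The 6 distal tubule and collecting duct markers summed to 94.5 to 497 CPM in ByJcl against 744 to 1769 CPM in Ajcl at Day 5. The 1769 CPM was Ajcl replicate 1, outside the fit, and the other Ajcl Day 5 libraries had 959 and 744 CPM. At baseline the sums were 135 to 526 CPM against 486 to 1460 CPM, and the ranges overlapped. At Day 5 neither edgeR nor DESeq2 called any of the 6 between the substrains, and 2 had an unadjusted edgeR p below 0.05. The 5 proximal tubule markers summed to 275 to 1089 CPM in ByJcl against 967 to 2487 CPM in Ajcl at Day 5, and to 299 to 1243 CPM against 667 to 2525 CPM at baseline. These ranges overlapped at both time points. They also did so without Ajcl Day 5 replicate 1, which had the 2487 CPM, beside 1338 and 967 CPM in the other Ajcl libraries. At Day 5 none of the 5 was called by either tool or had an unadjusted edgeR p below 0.05. All markers of both lists had negative log2 fold changes of ByJcl to Ajcl at both time points. All 8 podocyte markers fell in ByJcl after ADR by edgeR, with a median log2 fold change of −1.20. In Ajcl the median was −0.40, and none was called by edgeR (2 at an unadjusted p below 0.05, and 1 fell by DESeq2). At Day 5 all 8 had negative log2 fold changes of ByJcl to Ajcl, with a median of −0.66, and none was called by either tool (5 at an unadjusted p below 0.05). The interaction likewise had no call by either tool among the 8 (7 at an unadjusted p below 0.05). Of the 6 endothelial markers, 1 fell in ByJcl after ADR by edgeR and 2 by DESeq2. Of the 14 myeloid markers, Cd68 and Ly6c2 rose in ByJcl after ADR by edgeR, 8 had positive and 6 negative log2 fold changes, and DESeq2 called 1 as lower. In Ajcl, Ly6c2 rose, and 6 were positive and 8 negative. Over all tested genes, the shares at an unadjusted edgeR p below 0.05 were 14% between the substrains at Day 5, 9.8% in Ajcl after ADR and 8.02% for the interaction. The part of these cell types in the member values was not tested. In bulk samples fewer cells of a type and less RNA per cell cannot be told apart.

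Counted over the members, edgeR called none of 9 between the substrains at Day 5, beside 0.165% of all tested genes. At an unadjusted edgeR p below 0.05 stood 2, Nlrp1b and Il1b, beside 14% of all genes, and DESeq2 called 1, beside 3.15%. In Ajcl after ADR neither tool called a member, where edgeR called 0.312% of all genes and DESeq2 1.77%. There 2 members had an unadjusted edgeR p below 0.05, Casp4 and Gsdmd, beside 9.8% of all genes. In ByJcl after ADR edgeR called 1, beside 10.6% of all genes, and DESeq2 called 2, beside 15.8%. There 3 members had an unadjusted edgeR p below 0.05, beside 4557 of the 17002 genes. The interaction of substrain and ADR had 0 calls by either tool among the members, beside 0% of all genes by edgeR and 0.129% by DESeq2. Of the members, 0 had an unadjusted edgeR p below 0.05 there, beside 8.02% of all genes. The median log2 fold change of the 9 members was 0.23 at Day 5, 0.32 in Ajcl after ADR and 0.24 in ByJcl after ADR, where the medians over all tested genes were 0.0019, −0.0091 and 0.0066.

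**Figure D3:**
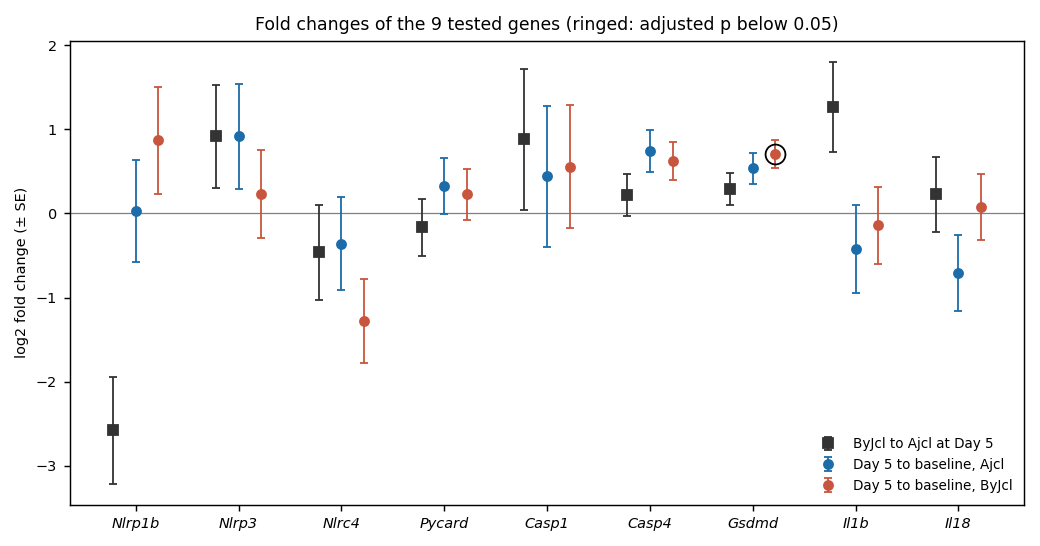
The log2 fold changes (± SE) of the 9 tested members are shown for ByJcl to Ajcl at Day 5 (squares) and for Day 5 to baseline in Ajcl and ByJcl (circles), with a ring where the edgeR adjusted p is below 0.05. The ring stands at Gsdmd in ByJcl (0.70), and Nlrp1b between the substrains lies lowest (−2.58).

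The wider pathway was described with 55 further genes in 6 lists, of which 51 were tested. Between the substrains at Day 5, edgeR called none of them, and 13 of 51 had an unadjusted p below 0.05, beside 14% of all tested genes. DESeq2 called 1, beside 3.15% of all genes, the flagellin receptor gene Naip2, at 0.68 with an adjusted p of 0.0212. In Ajcl after ADR edgeR called none, and 16 of 51 had an unadjusted p below 0.05, beside 9.8% of all genes. DESeq2 called 7 there, all higher, beside 1.44% of all genes called higher. In ByJcl after ADR edgeR called 14 of 51, all higher, beside 5.75% of all tested genes called higher, and DESeq2 called 19, all higher, beside 8.95%. Of the 14, 6 passed under all 19 alternatives. The count was 7 with all 12 libraries, 6 without ByJcl baseline replicate 1, baseline replicate 2 or Day 5 replicate 2, and 8 without ByJcl baseline replicate 3. Under the other settings it was 8 to 19. The interaction had no call by edgeR or DESeq2 among the 51 (2 at an unadjusted p below 0.05, beside 8.02% of all genes), so a response of these genes that differs between the substrains was not shown.

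Of the 8 interferon-induced GTPases, some of which can attack pathogen membranes and assist caspase-11, 4 rose in ByJcl. Gbp2 was 25.2, 24.8 and 20.4 CPM at baseline and 131, 133 and 76.5 CPM at Day 5, a log2 fold change of 2.28 (SE 0.34, edgeR adjusted p = 0.00327). Gbp3 rose by 1.88 (SE 0.32, adjusted p = 0.00583) and Irgm1 by 1.23 (SE 0.22, adjusted p = 0.00751), and both calls, like that of Gbp2, held under all alternatives. Gbp7 rose by 0.72 (SE 0.19, adjusted p = 0.0382), and its call was lost in 7 of 19 alternatives. In Ajcl all 8 had positive log2 fold changes, from 0.53 to 1.62, without an edgeR call. DESeq2 called all 8 as higher in ByJcl and 4 in Ajcl, which were Gbp2 (adjusted p = 0.00103), Gbp3 (0.00276), Gbp5 (0.00937) and Irgm1 (0.0334). Gbp2 there was 19.4, 19.5 and 15.7 CPM at baseline and 26.4 (replicate 1, outside the fit), 27.9 and 83.4 CPM at Day 5. Irgb10, named Gm12250 in the tables, was 20.8 CPM in ByJcl Day 5 replicate 1 and at most 2.25 CPM in every other library.

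Of the 12 listed genes of Toll-like receptor and NF-κB signalling, which primes inflammasome genes and which some of the 12 restrain, 5 rose in ByJcl. Tnfaip3, an inhibitor of NF-κB signalling, rose by 1.85 (SE 0.36, edgeR adjusted p = 0.00999), from 17.0, 23.1 and 32.1 CPM to 90.2, 109 and 60.9 CPM. Nfkbia, which encodes the inhibitor IκBα and is itself an NF-κB target, rose by 1.00 (SE 0.17, adjusted p = 0.00506). Tlr2, a receptor for bacterial lipoproteins, rose by 1.14 (SE 0.21, adjusted p = 0.00735). These 3 calls held under all alternatives. The adaptor Myd88 at 0.48 (SE 0.11, adjusted p = 0.0180) and the NF-κB subunit Rela at 0.54 (SE 0.13, adjusted p = 0.0229) each lost their call in 4 of 19. In Ajcl the log2 fold change of Tnfaip3 was 1.45 (SE 0.39, edgeR adjusted p = 0.204) and that of Nfkbia 0.69 (SE 0.18, edgeR adjusted p = 0.193), and DESeq2 called both (adjusted p = 0.0103 and 0.0317).

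Of the 10 tested genes of the interleukin-1 family and its receptors and antagonists, 4 rose in ByJcl. They were Il1a at 2.02 (SE 0.55, edgeR adjusted p = 0.0392), Il33 at 1.45 (SE 0.41, adjusted p = 0.0442), the interleukin-18 antagonist Il18bp at 1.07 (SE 0.31, adjusted p = 0.0487) and the receptor gene Il1r1 at 0.45 (SE 0.12, adjusted p = 0.0339). Il1a and Il33 encode cytokines that need no caspase-1 to signal. Il1a stayed low, at 0.434, 0.169 and 0.368 CPM at baseline and 1.42, 2.00 and 0.562 CPM at Day 5. Each of these 4 calls was lost in 7 to 12 of 19 alternatives. The antagonist Il1rn missed the threshold at 2.55 (SE 0.74, adjusted p = 0.0504) and passed with DESeq2 (adjusted p = 0.0156), which called 5 of the 10. In Ajcl all 10 had positive log2 fold changes, against 7 of 10 in ByJcl, with no edgeR call. Il33 in Ajcl was 4.73, 5.95 and 3.34 CPM at baseline and 5.79 (replicate 1, outside the fit), 13.2 and 14.3 CPM at Day 5. Its log2 fold change there was 1.55 (SE 0.44), with an adjusted p of 0.226 by edgeR and 0.0238 by DESeq2.

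Of the 9 tested other sensors, Naip2 was the 1 called in ByJcl after ADR, at 0.57 (SE 0.16, edgeR adjusted p = 0.0476), and the call was lost in 11 of 19 alternatives. Its CPM was 9.04, 10.8 and 10.7 at baseline and 14.0, 15.7 and 15.6 at Day 5 in ByJcl, and 6.34, 6.93 and 6.49 at baseline and 6.11 (replicate 1, outside the fit), 7.69 and 11.3 at Day 5 in Ajcl. The ByJcl libraries were above the Ajcl libraries at both time points. That held for 9.19% of all tested genes at baseline, 16.9% at Day 5 and 9.99% at Day 5 with Ajcl replicate 1. The Day 5 log2 fold change of ByJcl to Ajcl was 0.67 (SE 0.18), with an adjusted p of 0.167 by edgeR and 0.0212 by DESeq2. None of the 8 activators and inhibitors of the sensors and none of the 4 tested other caspases and pore proteins was called by edgeR or DESeq2 in the comparisons tested. At an unadjusted edgeR p below 0.05 stood 1 of the 8 in each substrain after ADR and 1 of the 4 between the substrains at Day 5, Casp8. Its log2 fold change of ByJcl to Ajcl was 0.23 (SE 0.11, edgeR adjusted p = 0.357).

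**Figure D4:**
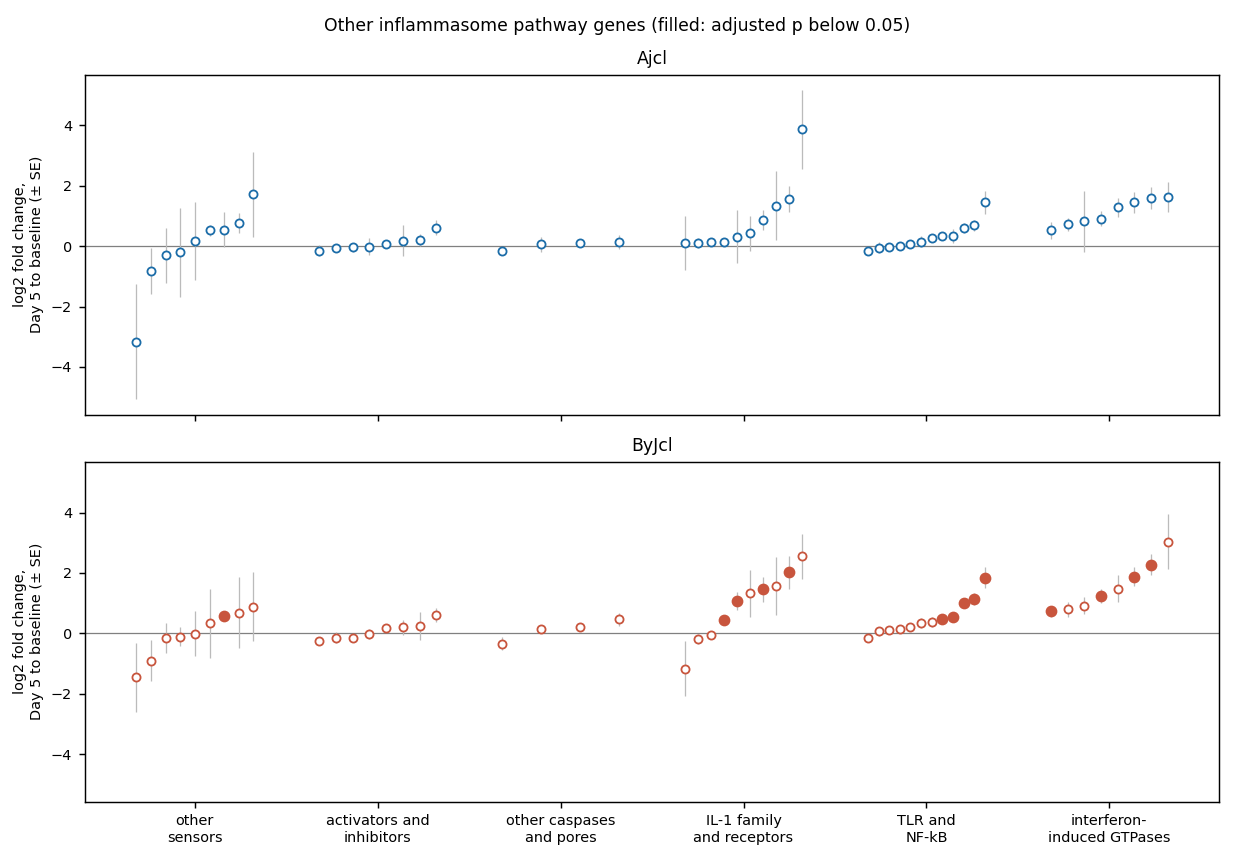
Each point is the log2 fold change (± SE) of Day 5 to baseline for 1 tested gene of 6 pathway lists, in Ajcl (top) and ByJcl (bottom), ordered by size within a list, and filled where the edgeR adjusted p is below 0.05. The 14 filled points are all in ByJcl and all above 0, in the sensors (1), the interleukin-1 family (4), the Toll-like receptor and NF-κB list (5) and the interferon-induced GTPases (4).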

How the data were processed

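Per the submitters' notes and the study's methods, the authors used FastQC, Trimmomatic, STAR (GRCm39) and featureCounts on the paired-end reads. What was deposited are raw counts per gene symbol and library, in 1 table for baseline and 1 for Day 5, all 12 columns of which were mapped to samples by their labels. The annotation and the strand setting of the counting are not given in the sources used here. Between 77.1% and 82.9% of counts from 1 to 49 in a library were even, as when both reads of a pair are counted, and halved counts were an alternative.

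Counts were analysed with edgeR 4.0.16 in R 4.3.3 (filterByExpr by group, TMM, quasi-likelihood test, 1 fit of 4 groups and 11 libraries), and p-values were adjusted by Benjamini-Hochberg over 17002 genes with a threshold of 0.05. The script was tested on simulated data. Alternatives were DESeq2 1.42.0, RLE size factors, other filters, all 12 libraries, halved counts, a fit of only the groups compared, a replicate block and leaving out each library. Libraries labelled as replicates differed by more than sampling noise (chi-square per degree of freedom of 44.6 to 271). That each is a separate animal is not stated for every library, so p-values measure the spread between libraries.

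Genes were placed with GENCODE vM39 (23897 symbols matched). Sequences are from RefSeq promoter windows of GRCm38.p6, matched exactly to GRCm39, and from the GRCm39 genome. Members and gene lists were chosen with earlier results of these data known. Named genes are all members, called pathway genes (at most 6 per list), tested genes within 500 kb of the Nlrp1b gene body, as a range with its extremes, and the 5 genes most like Nlrp1b. Some genes outside this rule are also named, Casp8 and Nlrp6 among them. Likeness used log2 CPM with a prior count of 2.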

Additional observations from a re-analysis of the deposited data

Results flagged for a closer look

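Ajcl Day 5 replicate 1 was outside the comparisons, and 3 members in it lay above each of the Ajcl baseline libraries. Pycard was at 3.56 CPM, where the baseline libraries ranged from 1.19 to 2.57 CPM. Casp4 was at 16.5 CPM, against 10.1 to 13.0 CPM. Gsdmd was at 39.0 CPM, against 29.1 to 38.3 CPM. Groups of 3 libraries are too small for a check of single outlying values.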

How the results depend on the processing

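In all, 1150 values were recomputed under other settings. Of those on counts of calls, on Nlrp1b between the substrains and on the genes most like it, 168 stayed the same, 20 moved and 2 became calls. A count stayed the same if it was equal to the main count or within a ratio of 1.5 of it. Nlrp1b stayed the same at baseline if it shifted by less than the SD between replicates. At Day 5 it did so if it kept its direction and side of the threshold. Of the values of single genes, 858 kept their direction and side of the threshold, 69 lost a call, 4 gained one and 29 changed sign, none of which was a call. With DESeq2, Nlrp1b at Day 5 was −2.57 and became a call, and the calls were 1 member and 1 pathway gene between the substrains at Day 5, 7 pathway genes in Ajcl after ADR, and 2 members and 19 pathway genes in ByJcl after ADR. Pathway calls in ByJcl were 7 with all 12 libraries. With all 12 libraries Il18 between the substrains at Day 5 was −0.077 and Nlrp1b in Ajcl after ADR −0.22. With Spearman's correlation, 2 of the 5 genes most like Nlrp1b were kept. The cause of these changes was not tested.

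The deviations of same-numbered libraries correlated between −0.24 and 0.37 over 15 pairs. Differently numbered pairs were not computed beside them, so whether the replicate numbers pair the libraries was not settled. The main fit did not pair them. With the replicate block the pathway calls in ByJcl were 8 and Casp1 in the interaction was −1.17.

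Leaving out 1 library at a time, Nlrp1b between the substrains ranged from −3.65 to −2.22 at Day 5 and from −3.92 to −2.98 at baseline. Calls between the substrains at Day 5 ranged from 0 to 1 members and 0 to 2 pathway genes, those in Ajcl after ADR from 0 to 6 pathway genes, and those in ByJcl after ADR from 0 to 1 members and 6 to 16 pathway genes. Without Ajcl Day 5 replicate 2, Ajcl had 6 pathway calls. ByJcl had 6 pathway calls without baseline replicate 1, baseline replicate 2 or Day 5 replicate 2, and 8 without baseline replicate 3, when Casp4 was the called member in place of Gsdmd (adjusted p = 0.0444). Where 1 library of a group was left, it was assumed to vary like the other groups.

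Uncalled values that changed sign when 1 library was left out had these ranges. Between the substrains at Day 5 they were −0.031 to 1.24 for Casp1, −0.017 to 0.52 for Casp4 and −0.093 to 0.66 for Il18. In Ajcl after ADR they were −0.24 to 0.23 for Nlrp1b, −0.62 to 0.089 for Nlrc4, −0.027 to 1.87 for Casp1 and −1.95 to 0.28 for Il1b. In ByJcl after ADR they were −0.19 to 1.38 for Nlrp1b, −0.34 to 0.92 for Casp1, −0.36 to 0.17 for Il1b and −0.094 to 0.30 for Il18. For the interaction they were −0.21 to 1.34 for Nlrp1b, −0.38 to 0.14 for Pycard, −1.30 to 0.59 for Casp1, −0.33 to 0.20 for Casp4, −0.077 to 0.51 for Gsdmd and −0.41 to 1.81 for Il1b. Nlrp1a, Nlrp3, Nlrc4, Casp1 and, in ByJcl, Nlrp1b rest on few counts, and Ajcl at Day 5 has 2 libraries.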
